A study of Homo sapiens with 30 samples.

Results

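The 9 transcription regulators of kidney development, PAX2, PAX8, WT1, SIX2, EYA1, SALL1, LHX1, GATA3 and OSR1, were followed in G401 cells, a line established from a malignant rhabdoid tumor (MRT) of the kidney that lacks SMARCB1. They were taken by symbol from the 20367 gene symbols of a precision nuclear run-on sequencing (PRO-Seq) table, and all 9 were present. The cells carried a lentiviral TET-inducible construct for HA-tagged EGFP (the control), SNF5 (the product of SMARCB1) or OMOMYC (written OmoMYC below, a MYC mutant that blocks the binding of MYC to its target sites), and every group, EGFP included, was induced with 1 µg/ml doxycycline for 24 h. Each construct was measured in 3 PRO-Seq samples and 3 samples of the assay for transposase-accessible chromatin (ATAC-Seq), and in 2 MYC chromatin immunoprecipitation (ChIP-Seq) samples. The study set restored SNF5 beside direct MYC inhibition, and the comparisons here ask what each construct did to the 9 members. The cells were populations transduced with virus and selected with G418, not single clones, and each expressed its transgene at the level the inducible promoter gave.

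These regulators act in a sequence in the embryo. OSR1 marks the intermediate mesoderm from which the kidney forms, and PAX2, PAX8 and LHX1 set up the nephric duct and are used again in the forming nephron, with GATA3 downstream in the duct. SIX2, EYA1, SALL1 and WT1 belong to the cap mesenchyme, the nephron progenitors, where SIX2 holds the progenitor state, EYA1 is a cofactor and phosphatase that works with SIX2 and its relatives, SALL1 is a zinc finger protein that keeps progenitors from differentiating, and WT1 is needed for their survival and is later a podocyte regulator.

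PRO-Seq maps engaged RNA polymerases. Each gene had a gene body count, taken from 1 kb past the start to the end of the gene, and a promoter-proximal count, taken in the densest 50 bp window within 500 bp of the start. Gene body totals were 28444943 to 46957634 reads per sample and promoter-proximal totals 518900 to 3386528, lowest in replicate 1 of every construct. Samples with the same replicate number deviated together across genes, with correlations of 0.821 to 0.921 in 9 pairs, so the replicate number was a term of each gene body and promoter-proximal fit. SMARCB1, the induced gene, had 4, 1 and 6 gene body reads in the EGFP samples, 2, 5 and 4 with OmoMYC and 2870, 4467 and 3440 with SNF5. Of the 9 members, PAX2 and LHX1 had the most gene body reads, as described next. Among the other marker genes checked, the mesenchymal gene VIM lay between 22.3 and 54.0 RPM per kb (RPM, gene body reads divided by the scaled total of the sample and set to 1000000 reads), while CDH2 and FN1 of the same list were at most 0.0104 and 0.0288. The epithelial genes KRT18 and KRT8 lay between 19.8 and 42.7 and between 3.99 and 11.1, while CDH1 and EPCAM were at most 0.252 and 0.0744. The neural gene SYP reached 1.32, while NEUROD1 was at most 0.00609, and no blood or liver marker exceeded 0.173 (SPI1) and 0.0482 (HNF4A).

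In EGFP-expressing cells 2 members carried most of the polymerase. In RPM per kb of gene body, PAX2 averaged 0.879 ± 1.00 (SD, n = 3) and LHX1 0.810 ± 0.339, and these levels did not differ beyond their spread. GATA3 followed at 0.0190 ± 0.00995, PAX8 at 0.0151 ± 0.0136 and OSR1 at 0.00890 ± 0.0110, again within each other's spread. WT1 was at 0.00444 ± 0.00488 and SIX2 at 0.00348 ± 0.00603, the latter from 1 read. SALL1 at 0.000676 ± 0.00117, also 1 read, and EYA1 at 0.000519 ± 0.000513 were lowest. PAX2 ranked at percentile 45.9 to 75.5 of all genes in the EGFP samples and LHX1 at 51.5 to 62.7, whereas EYA1 reached at most 18.7. The 9 genes therefore split into 2 transcribed genes, 2 genes at low but countable levels (PAX8 and GATA3), and 5 genes that averaged under 10 gene body reads over the 9 samples and were not tested.

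PAX2, a paired-box factor, lies at chr10:102505468-102589698 (hg19, plus strand). Its gene body held 25.4, 24.6 and 169 RPM in the 3 EGFP samples, 22.0, 23.8 and 139 with OmoMYC and 18.5, 18.1 and 92.2 with SNF5, in the order of replicates 1 to 3. Replicate 3 was high in every construct, so the groups overlapped, and within each replicate number the SNF5 sample was the lowest. SNF5 stood at 0.727, 0.734 and 0.544 of the EGFP sample of the same number. PAX2 fell by 0.61 on the log2 scale with SNF5 (SE 0.09, edgeR adjusted p = 0.00158). With OmoMYC the log2 difference was -0.19 (SE 0.09, edgeR adjusted p = 0.201), and the same-number ratios were 0.864, 0.968 and 0.819. The direct comparison of SNF5 with OmoMYC also separated them, by -0.42 (SE 0.09, edgeR adjusted p = 0.0134), a call that was lost without replicate 1 (adjusted p = 0.0546) or replicate 2 (adjusted p = 0.0884).

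LHX1, a LIM homeobox factor at chr17:35294772-35301915 (hg19, plus strand), had 3.36, 4.24 and 7.32 gene body RPM in EGFP-expressing cells, 1.28, 1.32 and 4.41 with OmoMYC and 0.694, 1.37 and 6.96 with SNF5. Both constructs were below EGFP in all 3 replicates, but in replicate 3 the SNF5 sample came to 0.951 of its EGFP sample, against 0.206 and 0.322 in replicates 1 and 2. LHX1 fell by 1.17 with SNF5 on the log2 scale (SE 0.36, edgeR adjusted p = 0.0344). This call was lost when replicate 1 (-0.79, adjusted p = 0.202) or replicate 2 (-0.96, adjusted p = 0.215) was left out and when the fit held the EGFP and SNF5 samples alone (-1.21, adjusted p = 0.0867), and without replicate 3 the difference was -1.91 (adjusted p = 4.28e-06). With OmoMYC the difference was -1.29 (SE 0.37) and missed the threshold (edgeR adjusted p = 0.0594), with same-number ratios of 0.379, 0.311 and 0.602. SNF5 and OmoMYC did not separate on LHX1 (0.12, SE 0.37, edgeR adjusted p = 0.848).

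PAX8, the close relative of PAX2, lies at chr2:113973574-114036498 (hg19, minus strand) and moved the other way. Its gene body reads numbered 22, 56 and 13 in the EGFP samples, 59, 127 and 16 with OmoMYC and 91, 138 and 111 with SNF5, or 0.638, 1.88 and 0.282 RPM with EGFP against 2.26, 3.85 and 2.49 with SNF5. All 3 SNF5 samples were above all 3 EGFP samples on the scaled values. PAX8 rose by 1.99 on the log2 scale with SNF5 (SE 0.50, edgeR adjusted p = 0.0155), a fold of 3.97. The same-number ratios were 3.54, 2.04 and 8.85, and without replicate 1 the call was lost (2.14, adjusted p = 0.0786). With OmoMYC the ratios were 2.68, 2.28 and 1.22, the log2 difference was 1.10 (SE 0.51) and the call was not made (edgeR adjusted p = 0.189). No promoter-proximal read was counted at the annotated PAX8 start in any of the 9 samples, which allows up to 3 reads. The transcript LOC654433 overlaps PAX8 on the opposite strand, where its gene body held 41, 38 and 9 reads with EGFP, 121, 83 and 16 with OmoMYC and 52, 65 and 42 with SNF5. PRO-Seq reads carry strand, and the share of LOC654433 reads in the PAX8 count was not tested.

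GATA3, a zinc finger factor at chr10:8096667-8117164 (hg19, plus strand), had 18, 13 and 7 gene body reads with EGFP, 36, 30 and 2 with OmoMYC and 51, 53 and 1 with SNF5. In replicates 1 and 2 the SNF5 samples were at 2.42 and 3.38 times EGFP and the OmoMYC samples at 2.00 and 2.32 times, whereas in replicate 3 they were at 0.148 and 0.284. Over the 9 samples neither difference passed (0.97, SE 0.56, edgeR adjusted p = 0.21 with SNF5; 0.63, SE 0.58, edgeR adjusted p = 0.509 with OmoMYC).

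**Figure D1:**
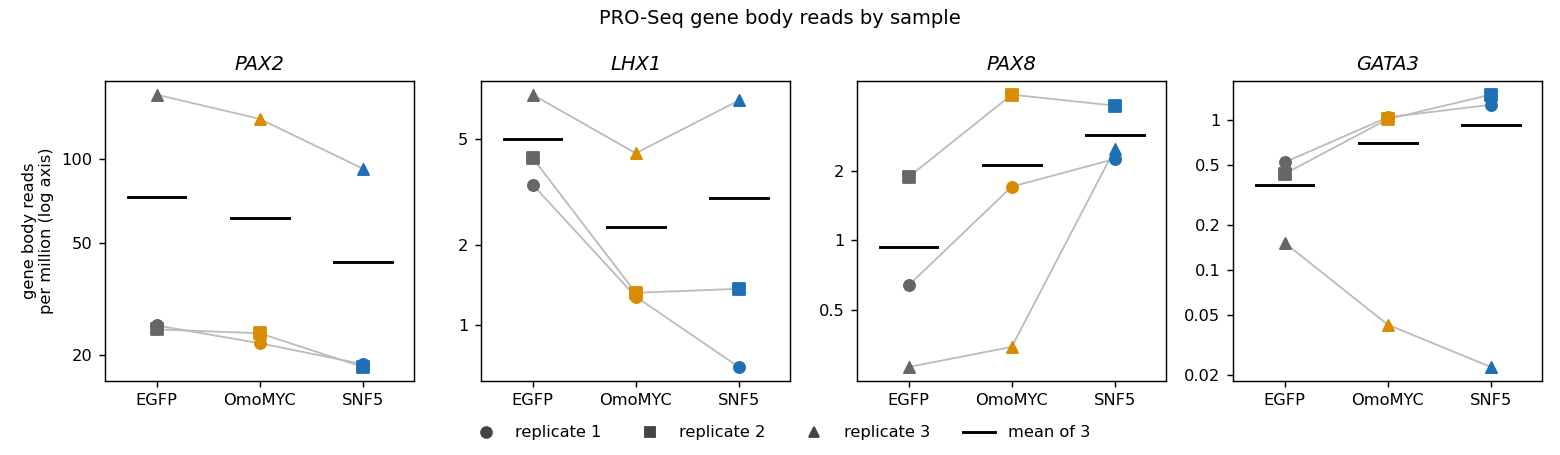
PRO-Seq gene body RPM (log axis, its range set for each gene) of PAX2, LHX1, PAX8 and GATA3 in the 9 samples. Symbols are replicates, grey lines join samples with the same replicate number and black bars are means of 3. For PAX2 the SNF5 sample is the lowest of each replicate number, all SNF5 values of PAX8 lie above all EGFP values, and replicate 3 stands apart for PAX2, LHX1 and GATA3.

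With SNF5, 3 of the 4 tested members were called (PAX8 higher, PAX2 and LHX1 lower), beside 34.4% of all 15060 genes tested. With OmoMYC 0 of 4 were called, beside 8.49% of all genes, and between SNF5 and OmoMYC 1 of 4, PAX2, beside 19.0%. For OmoMYC, LHX1 alone had an unadjusted p below 0.05 in edgeR, and DESeq2 called it (adjusted p = 0.00391). Replicate 3 carried more PAX2 and LHX1 and less GATA3 than replicate 1: by 2.58, 2.04 and -3.55 on the log2 scale, with -0.79 for PAX8, and the replicate number had an effect on all 4 (edgeR adjusted p = 4.74e-08, 0.00167, 0.00228 and 0.0137), as it had on 65.0% of all genes. Without replicate 3, all 4 members were called with SNF5 (PAX2 -0.45, LHX1 -1.91, PAX8 1.35, GATA3 1.5), beside 56.1% of all genes, and 3 were called with OmoMYC (LHX1 -1.53, PAX8 1.26, GATA3 1.09), beside 45.1%.

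**Figure D2:**
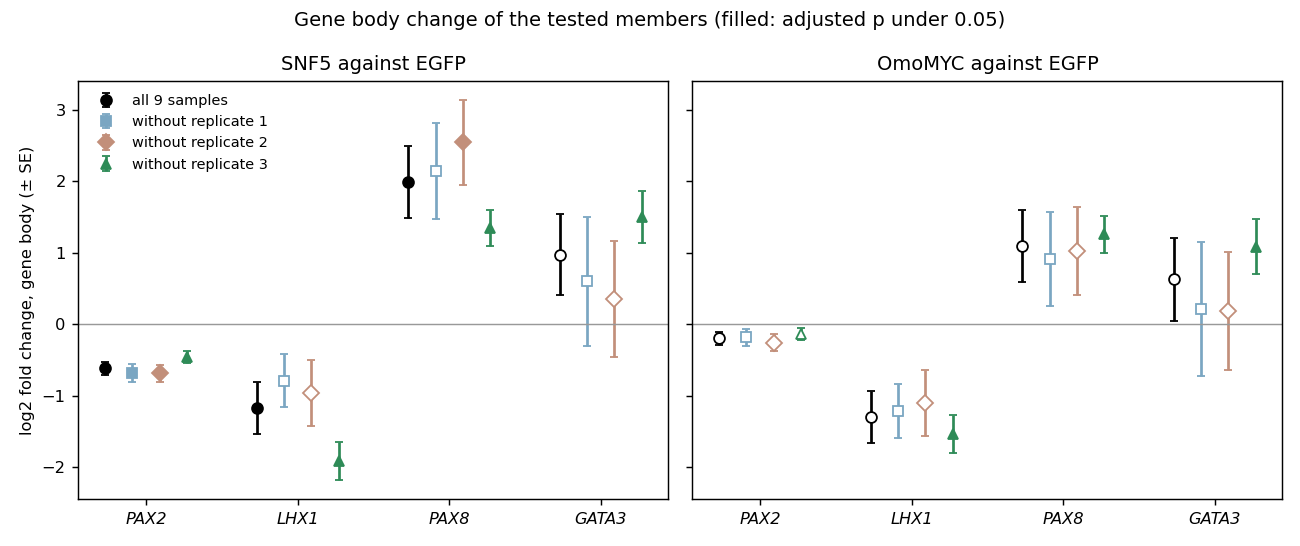
Fitted log2 fold change of gene body counts (± SE) for the 4 tested members with SNF5 (left) and OmoMYC (right) against EGFP, over all 9 samples and with each replicate number left out. Filled symbols have an adjusted p below 0.05. PAX2 with SNF5 is filled in all 4 fits, and with OmoMYC LHX1, PAX8 and GATA3 are filled in 1 fit, the one without replicate 3.

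The other 5 members gave too few reads for the test across genes, and their gene bodies are described by counts. WT1 (chr11:32409322-32457081, minus strand) had 3, 14 and 3 gene body reads with EGFP, 8, 12 and 1 with OmoMYC and 8, 7 and 8 with SNF5. EYA1 (chr8:72109668-72274467, minus strand) had 3, 5 and 0 with EGFP, 4, 10 and 9 with OmoMYC and 12, 14 and 0 with SNF5, so that its summed SNF5 reads, 26 against 8, gave a ratio of 2.97 (exact 95% interval 1.31 to 7.59) that came from replicates 1 and 2. Its summed OmoMYC reads, 23 against 8, gave a ratio of 2.87 (1.24 to 7.42). OSR1 (chr2:19551246-19558372, minus strand) had 0, 1 and 6 with EGFP, 1, 3 and 11 with OmoMYC and 4, 2 and 21 with SNF5, which gave 3.53 times EGFP for SNF5 (1.5 to 9.59) and 2.14 times for OmoMYC (0.821 to 6.20). SALL1 (chr16:51169886-51185183, minus strand) had 1 read in the 3 EGFP samples together, 2 with OmoMYC and 5 with SNF5. SIX2 (chr2:45232324-45236542, minus strand) had 1 read in 9 samples, in an EGFP sample, and its promoter-proximal count was 0 throughout, as was that of SALL1. The intervals of EYA1 with both constructs and of OSR1 with SNF5 lie above 1, but all of them cover counting error only and not the spread between samples. The coordinates are hg19.

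**Figure D3:**
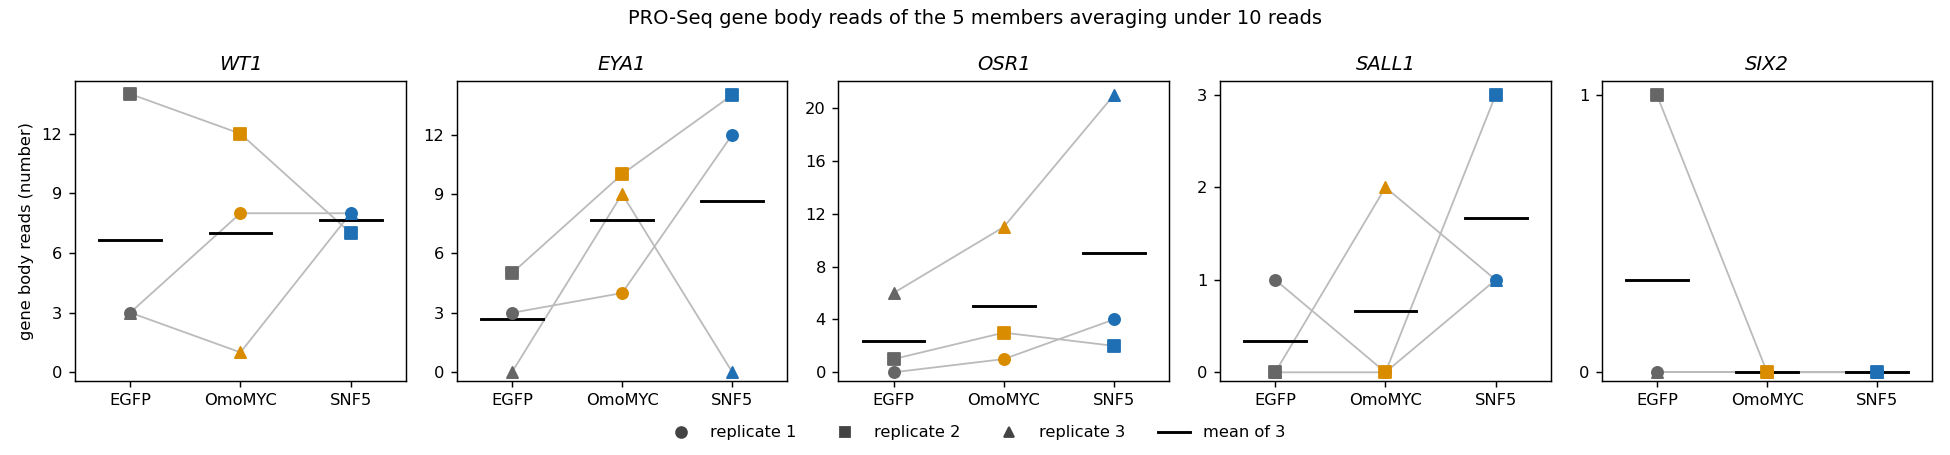
Number of PRO-Seq gene body reads per sample for WT1, EYA1, OSR1, SALL1 and SIX2 (linear axis from 0, its range set for each gene). Symbols are replicates, grey lines join samples with the same replicate number and black bars are means of 3. No panel exceeds 21 reads, and SIX2 has 1 read in all.

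Near the starts the picture was thinner, since PAX2 and LHX1 alone averaged 10 promoter-proximal reads. PAX2 had 5, 49 and 408 promoter-proximal reads with EGFP, 8, 107 and 434 with OmoMYC and 5, 102 and 269 with SNF5, a range set mainly by the replicate number (edgeR adjusted p = 1.45e-16, beside 93.1% of all genes). The fit was scaled by gene body totals, whereas promoter-proximal totals were 518900, 2923648 and 2538465 in the 3 EGFP samples. The part of these totals in the replicate effect was not tested. LHX1 had 8, 12 and 27 with EGFP, 3, 8 and 15 with OmoMYC and 6, 19 and 13 with SNF5. Neither passed the threshold with SNF5 (PAX2 -0.03, SE 0.27, edgeR adjusted p = 0.969; LHX1 -0.39, SE 0.37, edgeR adjusted p = 0.587), beside 4.30% of all genes called. With OmoMYC the differences were 0.50 (SE 0.26, edgeR adjusted p = 0.365) for PAX2 and -0.86 (SE 0.40, edgeR adjusted p = 0.287) for LHX1, beside 1.75% called, on a scale where the median of all genes was at 0.12. PAX2 passed with OmoMYC once replicate 3 was left out (1.07, edgeR adjusted p = 0.0299). In that fit 856 of 11241 genes were called, 825 of them higher, and the median of all genes was at 0.26.

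Summed over the 3 samples with SNF5, OSR1 had more reads near its start than in its gene body, 42 against 27, whereas with EGFP and OmoMYC it had fewer, 2 against 7 and 5 against 15. Within samples, OSR1 had 3 against 4 in SNF5 replicate 1, and equal numbers in replicate 2 with EGFP (1) and OmoMYC (3). Its promoter-proximal reads numbered 0, 1 and 1 with EGFP, 0, 3 and 2 with OmoMYC and 3, 13 and 26 with SNF5, so every SNF5 sample had at least as many as the highest OmoMYC sample and more than every EGFP sample. The summed reads, 42 against 2, were 19.2 times EGFP for SNF5 (exact 95% interval 4.99 to 164, counting error only). OSR1 averaged 5.44 reads and fell under the minimum of 10, and in the fit without that minimum its difference was 4.07 (SE 0.80, edgeR adjusted p = 6.78e-05), beside 4.89% of the 16519 genes then tested. The spread in that fit came from the trend across genes, so this p does not measure the spread of OSR1 between samples. With OmoMYC the same fit gave 1.19 (SE 1.19, edgeR adjusted p = 0.824). The gene body of OSR1 did not pass in the gene body fit without the minimum (1.89, SE 0.85, edgeR adjusted p = 0.122). WT1 had 2 promoter-proximal reads with EGFP, 1 with OmoMYC and 9 with SNF5, EYA1 had 0, 3 and 4, and GATA3 had 7, 4 and 4.

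The pausing index sets promoter-proximal against gene body density, and a rise means that polymerases are held nearer the start relative to the gene. For PAX2 it was 9.49, 111 and 86.8 with EGFP, 17.6, 253 and 112 with OmoMYC and 11.2, 262 and 109 with SNF5. Both constructs were above EGFP within each of the 3 replicate numbers, while the groups overlapped. In replicate 1 the PAX2 index rested on 5 promoter-proximal reads with EGFP, 8 with OmoMYC and 5 with SNF5. For LHX1 it was 8.47, 11.7 and 9.81 with EGFP, 8.38, 25.2 and 8.99 with OmoMYC and 26.3, 47.6 and 5.15 with SNF5. SNF5 was above EGFP in replicates 1 and 2 and below it in replicate 3. Without pairing, 0 of the 2 tested members were called with either construct, nor was any of the 11171 genes (0.00% called for both constructs in edgeR, with 9 genes at an unadjusted p below 0.05 with SNF5 and 1 with OmoMYC). The fit without pairing counts differences between replicate numbers as spread, so its lack of calls does not decide whether the index changed. With the replicate block, 409 of the 11171 genes were called with SNF5 and 252 with OmoMYC. PAX2 was then at 0.66 with SNF5 (SE 0.27, edgeR adjusted p = 0.161) and 0.72 with OmoMYC (SE 0.27, edgeR adjusted p = 0.151), and LHX1 at 0.62 (SE 0.46, edgeR adjusted p = 0.5) and 0.34 (SE 0.50, edgeR adjusted p = 0.811).

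Among 104 other genes of kidney lineages and relatives of the members, 71 were tested, and 15 rose and 10 fell with SNF5. Of all genes tested, 17.3% rose and 17.1% fell, and the median difference was 0.11 over the 71 and -0.03 over all genes. In the cap mesenchyme and nephron progenitor list, 0 of 14 tested genes rose and 1, the homeobox gene MEOX1, fell (-0.37, edgeR adjusted p = 0.0269). In the ureteric bud and collecting duct list 3 of 15 tested genes rose and 3 fell. GFRA1, the co-receptor of GDNF, rose by 2.18 (edgeR adjusted p = 0.00169) and CDH1, the epithelial cadherin, by 1.00 (edgeR adjusted p = 0.0119). SOX8 (-0.82), ETV4 (-0.40) and KRT18 (-0.27) fell, the first of these being a SOX factor of the branching duct and ETV4 a target of RET signaling.

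In the nephron epithelium list 4 of 9 tested genes rose and 1 fell. JAG1, a Notch ligand of the early nephron, had 0.145, 0.504 and 0.325 RPM with EGFP and 9.02, 7.02 and 2.51 with SNF5, a rise of 4.1 (SE 0.51, edgeR adjusted p = 0.000611). CUBN, an endocytic receptor of the proximal tubule, rose by 1.28 (edgeR adjusted p = 0.00125) and HNF4A, a nuclear receptor of the same segment, by 1.06 (edgeR adjusted p = 0.025). The fourth was the Notch receptor NOTCH2 (0.50, edgeR adjusted p = 0.00162), named after its value was seen, and FGF8 fell (-0.35, edgeR adjusted p = 0.0171). In the podocyte list 1 of 7 tested genes rose and 1 fell: PODXL, the podocalyxin of the podocyte surface, rose by 2.83 (SE 0.14, edgeR adjusted p = 9.49e-06) from 3.83, 3.93 and 2.56 to 28, 22.3 and 21.8 RPM, and LMX1B fell (-0.37, edgeR adjusted p = 0.00829). In the stroma list 3 of 9 rose and 0 fell, with the retinoic acid receptor gene RARB at 1.61, PDGFRA at 0.62 and MEIS2 at 0.24 (edgeR adjusted p = 0.00269, 0.00571 and 0.0326).

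Relatives of the members split evenly, with 4 of 19 tested genes higher and 4 lower. PAX6 rose by 3.63 (edgeR adjusted p = 6.43e-05), EYA2 by 2.24 (edgeR adjusted p = 0.000169) and PAX5 by 1.89 (edgeR adjusted p = 0.000317), and OSR2 rose by 0.89 (edgeR adjusted p = 0.0046). LHX6 (-0.83), SIX5 (-0.65), LHX3 (-0.64) and LHX2 (-0.36) fell. OSR2 and LHX2 were named after their values were seen. In the same 71 genes, OmoMYC raised 2 and lowered 5, beside the 8.49% of all genes called for it. The 2 were HOXA11 (0.94) and NOTCH2 (0.31) and the 5 were LHX6 (-0.65), MEOX1 (-0.43), VEGFA (-0.39), KRT8 (-0.31) and KRT18 (-0.31), of which HOXA11, NOTCH2, VEGFA and KRT8 were named after their values were seen. For JAG1, PODXL and PAX6, which rose with SNF5, the OmoMYC values were -0.62 (edgeR adjusted p = 0.597) for JAG1, 0.16 (edgeR adjusted p = 0.519) for PODXL and 0.89 (edgeR adjusted p = 0.0933) for PAX6. Without replicate 3 the counts over the 71 genes were 23 higher and 19 lower with SNF5, beside 56.1% of all genes called. With OmoMYC they were 11 and 13, beside 45.1%. CDH2, a mesenchymal cadherin in the marker genes, was also higher with SNF5 (2.72, edgeR adjusted p = 0.0086), and the neural vesicle gene SYP was lower (-1.34, edgeR adjusted p = 0.00657). The part of these in the list results was not tested.

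**Figure D4:**
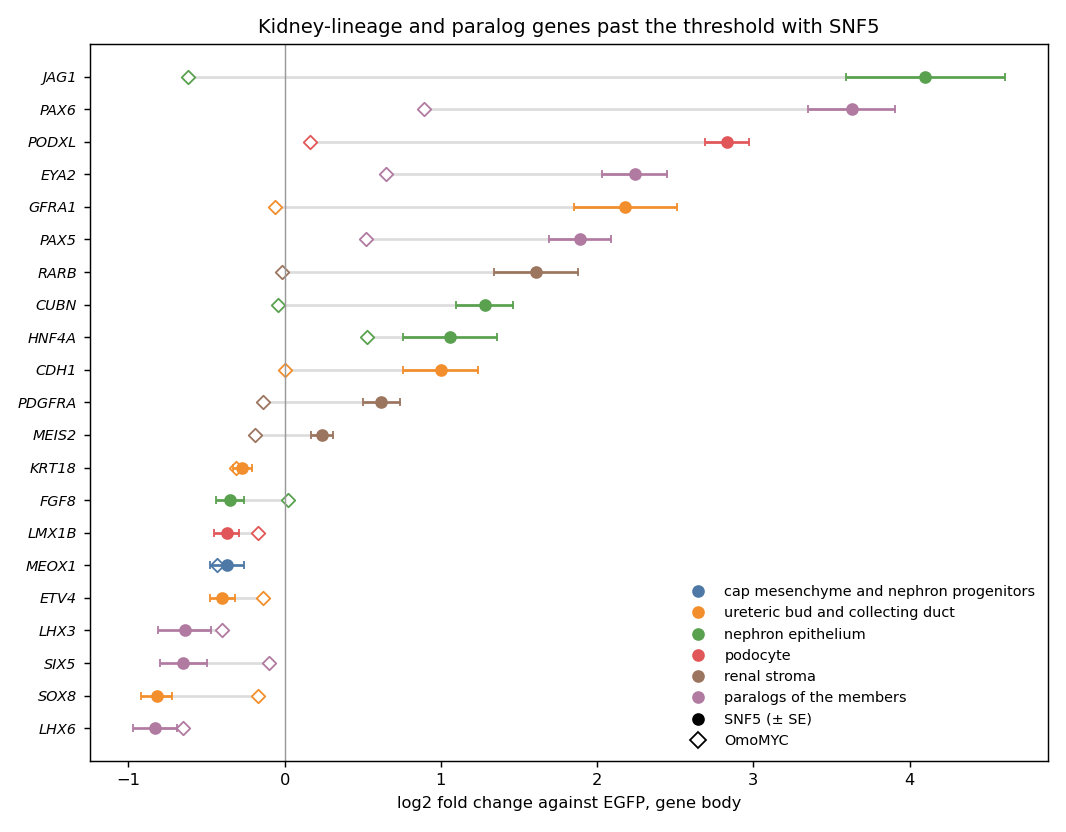
Fitted log2 fold change of gene body counts against EGFP for the kidney-lineage genes and relatives of the members that the text names by rule and that passed the threshold with SNF5. Filled circles are SNF5 (± SE), open diamonds the OmoMYC value of the same gene, and colors mark the list. JAG1, at 4.1, lies farthest to the right and LHX6, at -0.83, farthest to the left.

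For each tested member the genes with the most similar profile over the 9 samples were found by Pearson correlation of log2 gene body counts after the mean of each replicate number was removed, among 15059 genes. They were ZNF174 (0.993) and SAPCD2 (0.991) for PAX2, PTPN9 (0.993) and NARF (0.985) for LHX1, PRKCI (0.992) and FNBP1L (0.987) for PAX8, and EVPL (0.983) and OSBPL7 (0.969) for GATA3. The points share libraries and depth, and the highest of many values is given.

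ATAC-Seq asked where chromatin was open at the loci. Peaks of the 9 samples were merged into 40005 sites (hg38), and 32 of them lay within 100 kb of a member: 5 at PAX2, 7 at PAX8, 7 at WT1, 3 each at SIX2, EYA1, LHX1 and OSR1, 1 at GATA3 and 0 at SALL1. The number of these sites with a peak was 9, 14 and 6 in the EGFP samples, 4, 18 and 8 with OmoMYC and 24, 19 and 17 with SNF5. Every SNF5 sample was above every EGFP sample (a two-sided exact permutation test gave p = 0.1, which is the minimum for 3 samples against 3). The samples also differed in the number of peaks as a whole, from 9208 to 17817 with EGFP, 7260 to 23684 with OmoMYC and 22722 to 33596 with SNF5. Per 1000 sites of the same sample, the loci held 0.747 ± 0.026 with SNF5 and 0.757 ± 0.065 with EGFP (exact two-sided permutation p = 0.9, n = 3), and 0.684 ± 0.101 with OmoMYC (exact two-sided permutation p = 0.4, n = 3).

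Of the 32 sites, 2 had a peak in all 3 SNF5 samples and in no EGFP sample, beside 9.09% of all 40005 sites. None was lost with SNF5, and the share of all sites lost is not given here. For OmoMYC the count of gained sites was 0, beside 0.0275%. The first gained site, at chr2:113240926-113241273 (hg38), lies inside PAX8, 37.8 kb from its start, over an annotated exon and 506 bp from an internal PAX8 start. Its fold enrichment was 7.13, 8.88 and 6.11 in the SNF5 samples, and no peak was called there with EGFP or OmoMYC. The second, at chr2:19313052-19313318, lies 45.4 kb beyond the OSR1 start, nearest to the start of the long non-coding RNA gene LINC01376 (6998 bp), with fold enrichments of 7.65, 7.73 and 6.69 with SNF5 and 7.13 and 7.64 in OmoMYC replicates 2 and 3. When the same number of strongest peaks, 7260, was taken from every sample, 0 of the sites were gained at the loci, and within 20 kb of the members 1 was. The share of all sites gained with equal numbers of peaks is not given here.

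**Figure D5:**
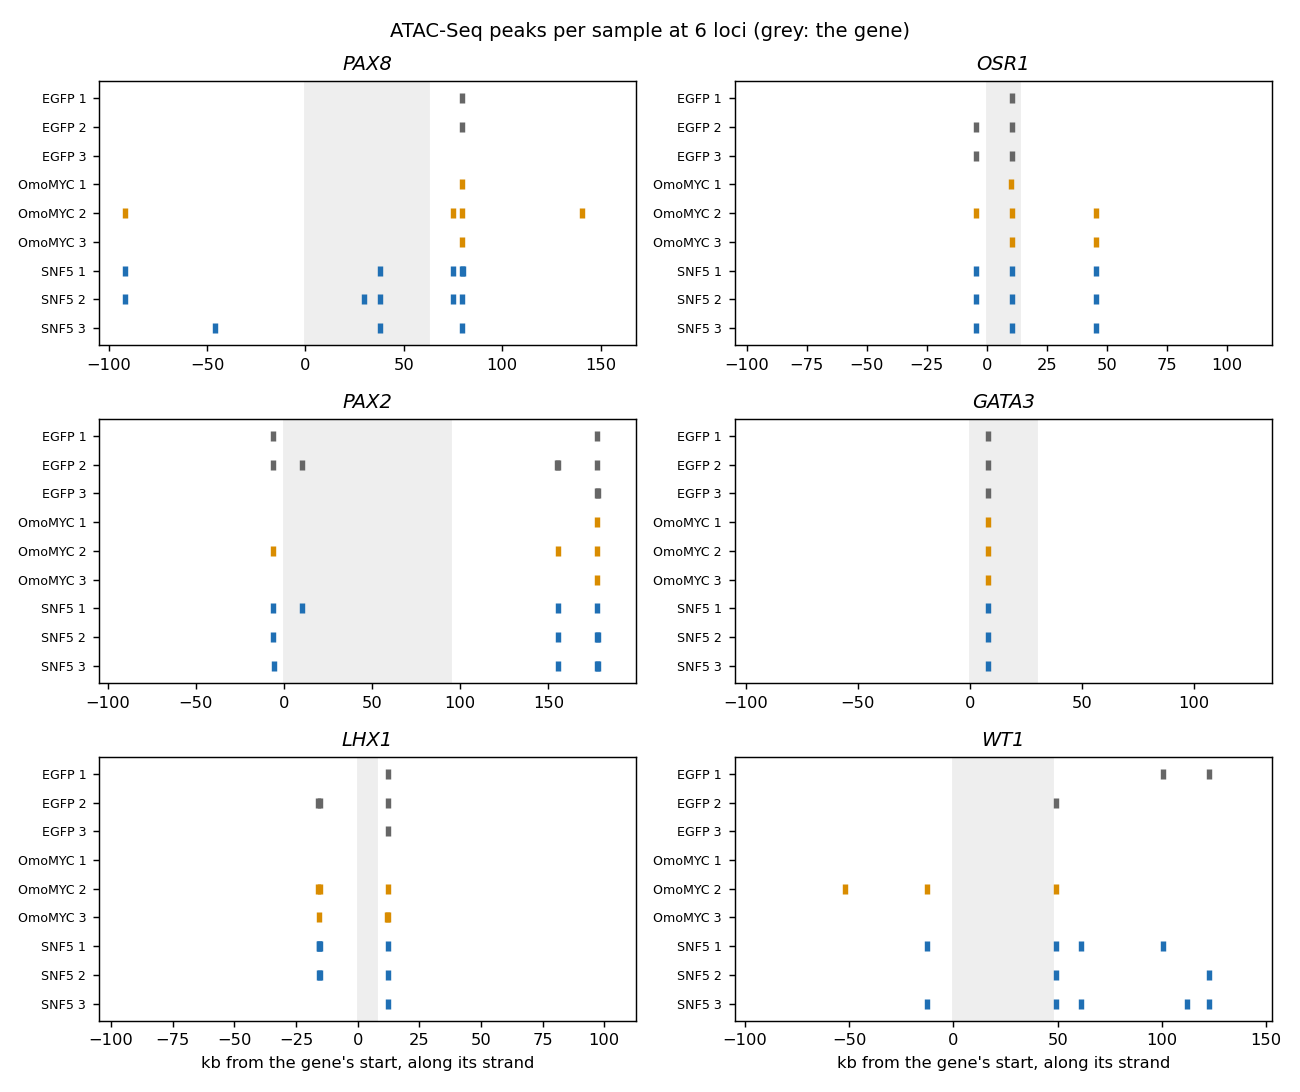
ATAC-Seq peaks in each of the 9 samples (rows) at the PAX8, OSR1, PAX2, GATA3, LHX1 and WT1 loci, by distance in kb from the start of the gene along its strand. Each tick is a peak and grey marks the gene. PAX8 has a column of ticks 37.8 kb from its start in the 3 SNF5 rows alone, and GATA3 has 1 site that is present in all 9 rows.

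Sites near starts were few. At least 1 sample had a peak within 1 kb of an annotated start for 3 of 9 members with EGFP, 2 with OmoMYC and 4 with SNF5, beside 52.6%, 55.1% and 60.8% of 19856 coding genes. GATA3 had its only site, chr10:8053364-8053795, in 9 of 9 samples with fold enrichments of 4.66 to 6.27. EYA1 had a site over an annotated start, 186.2 kb past its first annotated start (hg38), in 8 samples (6.0 to 9.43), missing in OmoMYC replicate 1. The PRO-Seq counts of EYA1 come from a shorter transcript, with a gene body of 163.8 kb. Whether this site lies at the start of that transcript was not tested. PAX2 had a peak at its second start, chr10:100745381-100745605, in EGFP replicate 2 (3.94) and SNF5 replicate 1 (3.18), and 1 more of its sites, 177.7 kb past its first annotated start (hg38) and over the start of SLF2, was in 9 of 9. OSR1 had a site in 9 of 9 samples in an intron of its hg38 annotation, 10.5 kb from its start and over a start of LINC01376. The OSR1 gene body counted by PRO-Seq is 6.13 kb long, shorter than that distance. At LHX1 a site over the start of the neighbor AATF was in 8 samples and the LHX1 start itself had none, although its gene body was transcribed.

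The promoter sequences show which part of each start lay in an open site. RefSeq promoters (GRCh38.p14) were on hand for 5 of the 9 members, PAX2, PAX8, WT1, SIX2 and GATA3, and the 250 bases before the start are given for the starts on which the PRO-Seq and ATAC-Seq values bear, with capitals for bases inside an ATAC-Seq site.

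GATA3 upstream start, chr10:8053391-8053640, plus strand, 74.8% G or C, all 250 bases inside the site found in 9 of 9 samples: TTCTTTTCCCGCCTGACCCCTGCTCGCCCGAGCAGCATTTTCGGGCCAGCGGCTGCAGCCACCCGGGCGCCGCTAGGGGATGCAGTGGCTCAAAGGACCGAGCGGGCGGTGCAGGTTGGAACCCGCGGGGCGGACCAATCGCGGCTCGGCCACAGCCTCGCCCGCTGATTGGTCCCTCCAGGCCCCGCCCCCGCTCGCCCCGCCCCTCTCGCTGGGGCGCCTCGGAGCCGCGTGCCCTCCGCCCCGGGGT
GATA3 start used by the PRO-Seq table, chr10:8054438-8054687, plus strand, 73.6% G or C, no base inside a site: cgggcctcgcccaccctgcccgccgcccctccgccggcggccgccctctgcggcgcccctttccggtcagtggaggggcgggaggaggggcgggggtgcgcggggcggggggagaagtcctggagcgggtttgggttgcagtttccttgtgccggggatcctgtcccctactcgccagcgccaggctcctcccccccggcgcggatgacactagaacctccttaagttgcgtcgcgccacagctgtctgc
PAX2 second start, chr10:100745332-100745581, plus strand, 66.0% G or C, 201 bases inside the site found in 2 samples: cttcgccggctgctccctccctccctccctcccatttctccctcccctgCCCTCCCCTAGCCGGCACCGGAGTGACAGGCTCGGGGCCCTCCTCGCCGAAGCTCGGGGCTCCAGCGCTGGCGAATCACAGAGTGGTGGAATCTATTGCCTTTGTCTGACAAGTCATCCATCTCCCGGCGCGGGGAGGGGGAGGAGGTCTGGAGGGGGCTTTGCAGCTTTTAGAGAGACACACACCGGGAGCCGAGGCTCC
PAX8 start, chr2:113278922-113279171, minus strand, 61.6% G or C, no base inside a site: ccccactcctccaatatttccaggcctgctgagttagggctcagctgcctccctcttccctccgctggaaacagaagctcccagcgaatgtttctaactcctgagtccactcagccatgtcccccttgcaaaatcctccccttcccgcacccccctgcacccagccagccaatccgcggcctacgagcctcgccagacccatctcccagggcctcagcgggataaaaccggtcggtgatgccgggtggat

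Each of these windows matched the hg19 genome once. The PAX8 start was the start of the PRO-Seq table itself, the second GATA3 start lay 16 bp before the table's start and the PAX2 start 129 bp before it, so the open GATA3 window is 1063 bp upstream of the GATA3 start whose promoter-proximal reads were counted. None of the 4 windows holds the E-box CACGTG, the site of MYC with MAX, which 6.3% of 35116 promoter windows of this length hold on either strand, or the AP-1 site TGANTCA, which 6.6% hold. Over all 14 windows on hand for the 5 members, 1 holds CACGTG, that of a GATA3 start 3468 bp upstream of the table's start, and 2 hold TGANTCA, at an internal GATA3 start and an internal WT1 start, and none of these 3 lies in an ATAC-Seq site. The windows without these letters say nothing of either factor.

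MYC ChIP-Seq had 940 and 5396 peaks in the 2 EGFP samples and 137 and 27 in the 2 SNF5 samples (hg19). The OmoMYC lists were not used here, since each held a placeholder line and no peak. At the 9 loci the EGFP samples had 5 peaks and the SNF5 samples 0. They lay 167.1 kb from the PAX2 start and 200 bp from that of FAM178A, an earlier symbol of SLF2 (sample 2, fold enrichment 5.66), 79.6 and 79.5 kb past the PAX8 start (6.14 and 9.84), and at the AATF start, 11.5 and 11.7 kb past that of LHX1 (4.44 and 4.64). For the MYC peaks at PAX8 the nearest start in the PRO-Seq table was that of PSD4, 25330 and 25418 bp away. An ATAC-Seq site 79.8 kb past the PAX8 start (hg38) lay 234 bp from an annotated PSD4 start. No MYC peak lay at the start of a member in either construct.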

How the data were processed

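PRO-Seq, ATAC-Seq and ChIP-Seq of G401 cells were analysed from the deposited files. The PRO-Seq table holds counts that the authors made with NRSA on hg19, per transcript, as promoter-proximal and gene body reads of each sample (its density columns were not used as values). Peak lists were made by the authors with Bowtie2 and MACS2 for each sample, on hg38 for ATAC-Seq and hg19 for ChIP-Seq, and their fold enrichment (a ratio) and −log10 q were used as deposited, with lowest values of −log10 q of 3.02 and 2.02. The labels' processing notes also name cutadapt, HOMER and DiffBind. The ATAC-Seq build was checked: 35.0% of sites lay within 1 kb of a GRCh38 coding start, against 3.2% for hg19 starts.

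Samples were grouped by their titles. The 20582 transcripts were reduced to the one with most reads per symbol. Genes with a mean of at least 10 reads over the 9 samples were tested with edgeR 4.0.16 (R 4.3.3) by the quasi-likelihood method, with construct and replicate number as terms over all 9 samples, gene body totals scaled by RLE factors as offsets, and Benjamini-Hochberg adjustment over all genes tested, called at 0.05. The pausing index was tested as the interaction of region and construct without pairing. The replicate numbers in the labels were found to pair the samples: same-number correlations were 0.821 to 0.921 and others -0.719 to 0.172. The study calls its PRO-Seq samples independent experiments, and its own gene body and promoter-proximal tests took a batch effect into account. The test of the replicate number was added after the data were seen. The fits were tested on simulated data in which 200 genes were given a 2-fold change: the gene body fit (15060 genes) recovered 85.5% of them, with 8.06% of its calls false, and the promoter-proximal fit (11241 genes) 61%, with 6.15% false. Both false shares were above the threshold of 0.05. The simulation changed a smaller share of genes than the 34.4% called with SNF5 and took its spread from the same fits. Its shares need not hold for the data. Members below 10 reads are given as counts with exact conditional 95% intervals of summed reads. Genes with 0 reads are given with the 3 reads that a count of 0 allows.

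ATAC-Seq peaks that overlapped by 1 bp were merged into sites. A site was gained where all 3 samples with a construct and no EGFP sample had a peak, and a locus was a gene with 100 kb on each side. Counts of peaks were compared by exact permutation tests in scipy 1.17.1. The peak lists hold no read totals, and those the study states for ATAC-Seq and ChIP-Seq were not used here. DESeq2 1.42.0, TMM scaling, other filters, other peak rules and leaving out each replicate number were the alternatives.

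The members and gene lists were chosen with earlier results of these data known. The genes named are the 9 members, SMARCB1, the 3 largest rises and falls among the called genes of each list, the 2 genes most like each tested member, and those nearest a gained site. Of the genes this rule names, 1 is not reported here, though the list counts include it, nor is 1 of the marker genes.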

Additional observations from a re-analysis of the deposited data

How the results depend on the processing

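Over 95 recomputed counts of members called or of sites gained or lost, 77 stayed within 1.5 times the reported count. The 77 include counts of 0 that stayed at 0, as for members called in the pausing index. They also include falls from 3 members to 2 in the gene body with SNF5. PAX2 was called as lower with SNF5 in every alternative but the fit with no replicate block, in which 0 of the 4 members were called in any gene body comparison (SNF5 against OmoMYC also 0). In the paired fits, the replicate block left the pausing index of both members uncalled. With single replicates left out, members called in the gene body ranged from 1 (without replicate 1) to 4 with SNF5, from 0 to 3 with OmoMYC and from 0 to 1 between the constructs. With only the 2 groups in the fit, 2 members (PAX2 and PAX8) were called with SNF5. For OmoMYC in the gene body, 1 member (LHX1) was called with no filter, 1 (LHX1) with DESeq2 and 2 (LHX1 and PAX8) with only the 2 groups in the fit. In promoter-proximal counts 1 member (OSR1) was called with SNF5 with no filter, and 0 to 1 (PAX2) with OmoMYC when a replicate was left out. Sites gained with SNF5 numbered 6 at 2 of 3 samples, 0 with the same number of top peaks, 1 within 20 kb and 3 to 6 with a replicate left out, and with OmoMYC 1 at 2 of 3 samples and 0 to 1 with a replicate left out. The shares of all sites gained under the changed peak rules are not given here, so these counts cannot be set against them. Differences that did not pass and changed sign with a replicate left out were LHX1 between SNF5 and OmoMYC (-0.37 without replicate 3 to 0.43), promoter-proximal PAX2 (-0.49 to 0.65 without replicate 3) and LHX1 (-0.87 to 0.05 without replicate 3) with SNF5, and the LHX1 pausing index with OmoMYC (-0.06 without replicate 2 to 0.62). Promoter-proximal PAX2 with SNF5 also did so with promoter-proximal scaling (0.00). Over all genes, gene body calls with SNF5, 5181 in the report, were 1621 without replicate 1, 1498 without replicate 2, 8454 without replicate 3 and 223 with no replicate block. Those with OmoMYC, 1279, were 2 without replicate 1, 2 without replicate 2, 6796 without replicate 3, 2108 with DESeq2, 1973 with 2 groups and 1 with no replicate block, and the promoter-proximal calls with SNF5, 483, were 940 without replicate 1, 53 without replicate 2, 807 with no filter, 312 with DESeq2, 1041 with promoter-proximal scaling and 0 with no replicate block. Those with OmoMYC, 197, were 4 without replicate 2, 856 without replicate 3, 298 with no filter and 0 with no replicate block. Gene body calls between SNF5 and OmoMYC, 2858, were 856 without replicate 1, 736 without replicate 2, 6258 without replicate 3 and 75 with no replicate block. The pausing calls of 0 became 409 and 252 with the replicate block. WT1, EYA1, SALL1, SIX2 and OSR1 had too few counts to be tested under the filter used. The causes of these changes were not tested.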
